A study of Mus musculus with 32 samples.

Results

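Skin mesenchyme, the loose connective tissue under the early epidermis, was represented by 77 of the 1916 single cells sequenced from 7 mouse embryos. These were the cells picked from skin that the study's own cell annotation labelled mesenchymal, and they made up 39.3% of the 196 skin cells and 77 of the 91 skin cells placed in the mesoderm-derived group. All embryos were C57BL/6J mice with no genetic change or treatment, and the days sampled were E9.5, E10.5 and E11.5. Skin mesenchyme came from 6 embryos, namely E9.5 embryo 2 with 19 cells, E9.5 embryo 3 with 15, E10.5 embryo 1 with 13, E10.5 embryo 2 with 16, E11.5 embryo 1 with 10 and E11.5 embryo 2 with 4. It was compared with mesenchymal cells of the intestine (74 cells, 7 embryos), liver (76 cells, 3 embryos, all E9.5) and lung (125 cells, 6 embryos), with mesoderm-derived cells of the somites (202 cells, 7 embryos) and, for values only, with epithelial cells of the same skin (79 cells, 6 embryos). E9.5 embryo 2 was the only female embryo with skin and was sequenced on another instrument to a greater depth. The skin cells of E9.5 embryo 3 shared a library with intestine and somite cells. Both E10.5 embryos came in the same deposited skin sample, and so did both E11.5 embryos. The labels and methods do not give the region of the body from which the skin was taken.

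Dermal mesenchyme arises from several embryonic sources: the somites give the dermis of the back, the lateral plate gives that of the belly and limbs, and the cranial neural crest, with some head mesoderm, gives that of the head. It lies against the surface ectoderm and exchanges Wnt, BMP and FGF signals with it, and it later forms the fibroblasts of the skin and the condensations under hair follicles. Visceral mesenchyme, which surrounds the gut tube and its derivatives, is known for the forkhead factors Foxf1 and Foxf2 and responds to Hedgehog ligand from the endoderm. Hox genes are switched on along the body axis behind the head, so that their combination differs with position.

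Levels are given for each embryo as the mean over its cells of log2(TPM/10 + 1), where TPM is the number of unique molecules (UMIs) counted for a gene after scaling the total of each cell to 1000000. It carries no gene length, so levels are compared between groups for one gene and not between genes. Where 6 values of a gene are listed, they follow the order in which the embryos are named above, with the E9.5 pair first and the E11.5 pair last. A cell was counted as expressing a gene at a value of 1 or more. The embryo was the replicate, and a gene was called different between organs at an adjusted p (limma with Benjamini-Hochberg adjustment over all genes tested) under 0.05 and an absolute log2 difference of at least 1. The 77 cells held 29667 to 1719891 UMIs with a median of 309699, and the median cell of E9.5 embryo 2 held 943833 UMIs against 200794 to 312019 in the other 5 embryos. No cell name occurred in more than 1 library.

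Cells with the mesenchymal label expressed mesenchyme markers. Of 14 general mesenchyme markers fixed for this check, 13 were detected and Thy1 had no UMI in any of the 77 cells, and the summed level of the list was 47.4 to 60.1 in the 6 embryos against 16.0 to 36.4 in skin epithelium. The 11 surface epithelium markers summed to 4.62 to 11.4 in skin mesenchyme and to 39.8 to 42.8 in skin epithelium. Those 11 each had at least 1 UMI, but their spread over cells was uneven. Krt8, a keratin of simple epithelia, reached 1 in 61 of the 77 cells and Krt18 in 51. Tfap2b did so in 28, Cldn6 in 19, Epcam in 15 and Cldn7 in 14. Of the 28 cells with Tfap2b, 9 also expressed Epcam and 21 the mesenchymal factor Alx4, which 48 of all 77 cells expressed. Tfap2b was therefore not confined to cells with Epcam. Cdh1 and Trp63 did so in 6 each, Krt14 in 4, and Krt5 and Grhl2 in 0. The list summed to 7.38 to 14.5 in intestine, 5.67 to 8.68 in liver and 3.15 to 8.87 in lung mesenchyme, which overlap with skin, and to 0.672 to 2.9975 in somite, which does not. The part of these markers in the results below was not tested. Markers of dermomyotome and muscle summed to 1.31 at most, of neural crest and melanoblasts to 2.29 at most and of limb and lateral plate to 0.434 at most. In the muscle list Myod1 and Lbx1 had no UMI. In the neural crest list Foxd3 and Erbb3 had no UMI and Sox10 reached 1 in 0 of 77 cells, while Ets1 did so in 28 and Tfap2a in 16. Sclerotome and cartilage markers summed to 2.46 to 7.49 (somite 4.25 to 13.4), with Sox9 in 57 and Col2a1 in 65 cells and Pax1, Pax9 and Acan at 0 UMIs. Pericyte and smooth muscle markers summed to 3.55 to 8.95, with Kcnj8 and Myh11 at 0 UMIs, and overlapped with every other group. Dermal precursor markers summed to 7.84 to 15.3 and overlapped with somite at 6.82 to 12.2, Dpt had no UMI, and of the 9 tested 0 were higher and 1 lower than in somite. Over all genes 1.45% were higher and 0.622% lower than in somite. Blood markers summed to 6.88, 0.266, 1.13, 1.99, 2.71 and 4.58, highest in E9.5 embryo 2. Their highest embryo reached 17.5 in lung, 16.5 in somite, 14.2 in liver, 8.21 in intestine and 6.75 in skin epithelium. Cardiomyocyte markers, which include Actc1, summed to 2.37 at most in skin mesenchyme and 2.85 in skin epithelium. Elsewhere they reached 27.4 in liver, 18.8 in somite, 7.22 in lung and 4.16 in intestine. The part of blood and cardiomyocyte transcripts in the results below was not tested.

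The 4 genes used to describe skin mesenchyme were Crabp1, a binding protein that holds retinoic acid in the cytoplasm, the homeobox factors Msx2 and Prrx1, and the basic helix-loop-helix factor Twist1, which is required in head mesenchyme. They were expressed together in most of these cells, and the promoter of each is shown to compare the sequence around their start sites. Each sequence runs 5′ to 3′ on the strand of the gene from 250 bases before the RefSeq start site to 50 after it (build GRCm38.p6), and capitals mark the homeodomain core TAAT, the GC box GGGCGG and the TATA box TATAAA on either strand. The Crabp1 window is chr9:54764498-54764797 on the plus strand, the Msx2 window is chr13:53472731-53473030 on the minus strand, the Prrx1 window is chr1:163313601-163313900 on the minus strand and the Twist1 window is chr12:33957421-33957720 on the plus strand.
Crabp1: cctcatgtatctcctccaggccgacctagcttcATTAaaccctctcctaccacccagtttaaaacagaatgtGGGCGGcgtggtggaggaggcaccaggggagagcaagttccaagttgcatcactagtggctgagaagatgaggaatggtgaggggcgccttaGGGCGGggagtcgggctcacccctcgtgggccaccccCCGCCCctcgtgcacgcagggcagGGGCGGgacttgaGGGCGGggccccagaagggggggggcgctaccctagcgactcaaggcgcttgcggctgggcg
Msx2: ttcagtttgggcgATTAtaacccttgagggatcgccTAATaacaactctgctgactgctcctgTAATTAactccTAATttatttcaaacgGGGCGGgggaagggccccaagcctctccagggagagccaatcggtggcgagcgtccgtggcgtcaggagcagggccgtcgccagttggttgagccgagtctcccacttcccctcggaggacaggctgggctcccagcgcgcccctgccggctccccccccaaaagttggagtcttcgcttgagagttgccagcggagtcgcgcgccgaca
Prrx1: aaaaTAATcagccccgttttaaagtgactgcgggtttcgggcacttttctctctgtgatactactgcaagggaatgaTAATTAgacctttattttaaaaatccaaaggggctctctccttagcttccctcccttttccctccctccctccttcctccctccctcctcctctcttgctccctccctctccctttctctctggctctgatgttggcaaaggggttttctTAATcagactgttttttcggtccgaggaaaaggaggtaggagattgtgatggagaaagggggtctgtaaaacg
Twist1: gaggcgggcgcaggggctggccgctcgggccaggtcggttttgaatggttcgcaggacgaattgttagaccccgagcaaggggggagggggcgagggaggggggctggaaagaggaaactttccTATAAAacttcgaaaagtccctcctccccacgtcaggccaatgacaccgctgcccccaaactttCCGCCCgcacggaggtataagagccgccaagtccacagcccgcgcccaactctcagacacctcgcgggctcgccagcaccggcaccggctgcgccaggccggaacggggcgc

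The 4 windows had little in common at this level. The homeodomain core occurred 5 times in the Msx2 window and 4 times in the Prrx1 window, counting the overlapping pair in TAATTA as 2, against 1 in Crabp1 and 0 in Twist1, and 58% of the 32851 RefSeq mouse promoter windows hold at least 1. The Crabp1 window held 5 GC boxes, Msx2 and Twist1 held 1 each and Prrx1 held 0, where 35.7% of all windows hold 1 or more. A TATAAA stood only in the Twist1 window, 126 bases before the start site, and 13.6% of all windows hold one. The GC share was 65% for Crabp1, 61% for Msx2, 47.7% for Prrx1 and 66% for Twist1, and the median over all windows was 52.7%. These matches describe letters in the windows and do not show that a factor binds there.

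The 4 genes were expressed together in most single cells of skin mesenchyme. All 4 reached 1 in 64 of 77 cells, or 83.1% (95% exact binomial interval 72.9% to 90.7%, covering counting error only), and 11 of the other cells had 3 of them. The intervals and limits here take cells as independent draws, and leave out the spread between embryos. Twist1 alone reached 1 in 13 of 19 cells of E9.5 embryo 2 and in 16 of 16 cells of E10.5 embryo 2. All 4 genes reached 1 in 0 of 74 intestine cells, which allows a share of up to 4.05%, and in 0 of 125 lung cells, which allows up to 2.4%. They did so in 2 of 76 liver cells and in 7 of 202 somite cells. In skin epithelium 15 of 79 cells, or 19% (11% to 29.4%), held all 4. These genes were proposed as markers with results of these data known, so the shares are a description.

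Crabp1 was detected in all 77 cells, with 5.38, 6.56, 6.93, 6.20, 7.11 and 5.70 in the 6 embryos. In TPM it averaged 996 ± 464 (SD, n = 6 embryos) in skin mesenchyme, 202 ± 138 (n = 7) in somite, 201 ± 114 (n = 6) in skin epithelium, 84.0 ± 76.7 (n = 3) in liver, 32.5 ± 30.1 (n = 7) in intestine and 20.3 ± 17.4 (n = 6) in lung mesenchyme. No embryo of any other group reached the lowest skin embryo, and the levels of somite and skin epithelium were within 1 SD of each other. Msx2 stood at 3.54, 4.97, 4.29, 4.98, 6.93 and 5.98, highest in both E11.5 embryos. The other mesenchymes reached 1.91 at most, while skin epithelium ran from 2.57 to 4.77 and overlapped skin mesenchyme, so Msx2 separated skin from the other organs but not the 2 layers of the skin. Prrx1 lay at 3.66, 2.99, 4.32, 4.90, 5.54 and 4.59 and did not overlap any other group, the next being somite with a highest embryo of 2.54. Twist1 had levels of 1.82, 2.99, 3.52, 3.73, 3.59 and 4.08, with E9.5 embryo 2 below the highest intestine embryo (2.04) and both E9.5 embryos below the highest somite embryo (3.13).

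**Figure D1:**
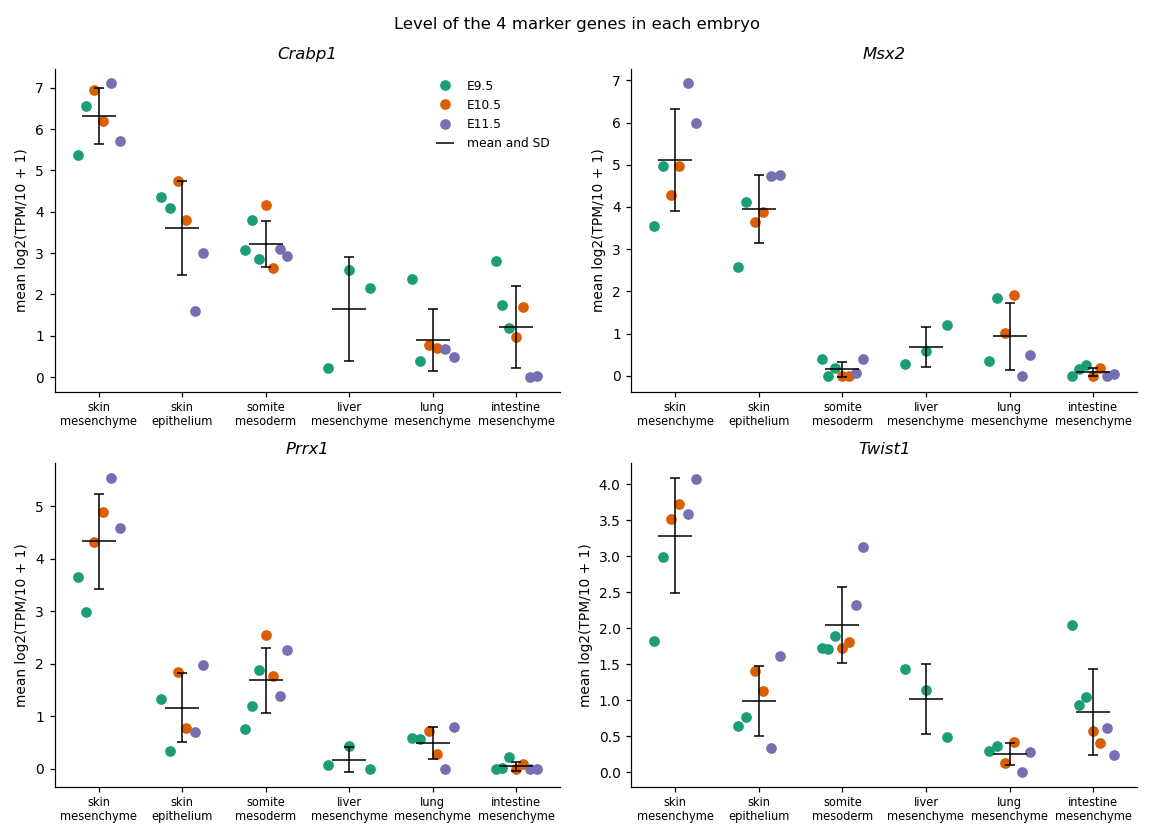
Level of Crabp1, Msx2, Prrx1 and Twist1 in each embryo (points, coloured by day) of 6 cell groups, as the mean over cells of log2(TPM/10 + 1), with the group mean and SD in black. Crabp1 and Prrx1 of skin mesenchyme lie above every embryo of the other groups, Msx2 overlaps only with skin epithelium, and Twist1 at E9.5 overlaps with intestine and somite.

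Which genes set skin mesenchyme apart from mesenchyme of the internal organs was asked first. Skin mesenchyme had 285 genes called against the mean of intestine, liver and lung mesenchyme, 1.93% of the 14802 tested, with 190 higher (1.28%) and 95 lower (0.642%). The median difference over all genes was -0.01 (log2). In 260 of the 285, every skin embryo lay on the same side of the visceral mean. The list was led by 3 of the 4 marker genes, Crabp1 (5.06, SE 0.37, adjusted p = 4.88e-11), Msx2 (4.54, SE 0.31, adjusted p = 1.24e-11) and Prrx1 (4.10, SE 0.26, adjusted p = 1.5e-12). These were proposed as markers with results of these data known, so their place in the list is a description.

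Apod, a secreted lipocalin that carries lipids, stood at 2.46, 1.69, 3.68, 4.36, 5.65 and 4.05 in the skin embryos and at 0.01 on average in visceral mesenchyme, a difference of 3.64 (SE 0.31, adjusted p = 1.29e-09). Every skin embryo was above every visceral embryo, and both E9.5 embryos were the lowest. Vcam1, an adhesion molecule of the immunoglobulin family, had 3.19, 3.15, 2.91, 3.69, 5.24 and 4.51 and a difference of 3.28 (SE 0.26, adjusted p = 3.19e-10). No skin embryo of Vcam1 overlapped with any other group, the nearest being a lung embryo at 1.59. Alcam, another such molecule, had 3.87, 2.93, 4.45, 5.42, 5.96 and 6.41 and a difference of 3.55 (SE 0.29, adjusted p = 6.92e-10), but liver mesenchyme, at 3.04 to 3.95, overlapped with skin while intestine and lung stayed at 0.62 or less. Tnfaip6, a secreted protein that binds hyaluronan, was the steadiest of these genes, with 3.28, 3.36, 3.63, 3.38, 3.61 and 3.18, and a difference of 3.31 (SE 0.21, adjusted p = 1.5e-12). Its highest visceral embryo reached 0.38 and its highest somite embryo 3.01, just below the lowest skin embryo. Colec12, a scavenger receptor, was higher by 3.23 (SE 0.27) with no overlap. Anxa2, a calcium-dependent membrane-binding protein, was higher by 3.12 (SE 0.39), and its liver embryos, at 3.60 to 4.90, overlapped with skin.

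Among the genes lower in skin mesenchyme, Foxf1 was close to absent, with 0.02, 0.01, 0.00, 0.00, 0.00 and 0.00 against a visceral mean of 2.94 (-2.93, SE 0.19, adjusted p = 1.74e-12) and 0 of 77 cells expressing it. Its level in liver mesenchyme, at 0.28 to 2.30, was also below that in intestine and lung, at 3.25 to 4.34. Tcf21, a factor of visceral and cardiac mesoderm, had 0.03, 0.00, 0.00, 0.00, 0.00 and 0.13 and differed by -2.88 (SE 0.36, adjusted p = 1.5e-06). Gucy1a3, a subunit of the nitric oxide receptor found in smooth muscle, and Ppp1r14a, an inhibitor of myosin phosphatase, were lower, with differences of -2.57 (SE 0.29) and -2.33 (SE 0.32). Nrp1, a receptor for semaphorins and VEGF, reached 0.45 at most in skin mesenchyme and differed by -2.32 (SE 0.33, adjusted p = 1.25e-05). Meis1, a homeodomain partner of Hox proteins, had 0.53, 0.29, 0.61, 0.47, 2.56 and 1.25, with E11.5 embryo 1 far above the E9.5 and E10.5 embryos, and a difference of -2.48 (SE 0.24, adjusted p = 8.11e-09). Asb4 (-2.27, SE 0.36, adjusted p = 6.89e-05) and Ifitm1 (-2.18, SE 0.44, adjusted p = 0.00132) were also lower, but E9.5 embryo 2 stood apart from the other 5 skin embryos in both, at 1.86 and 2.74. Asb4 was highest in liver mesenchyme, at 5.40 to 6.31, against 2.9966 at most in lung, and its intestine level of 0.73 at most overlapped with skin.

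**Figure D2:**
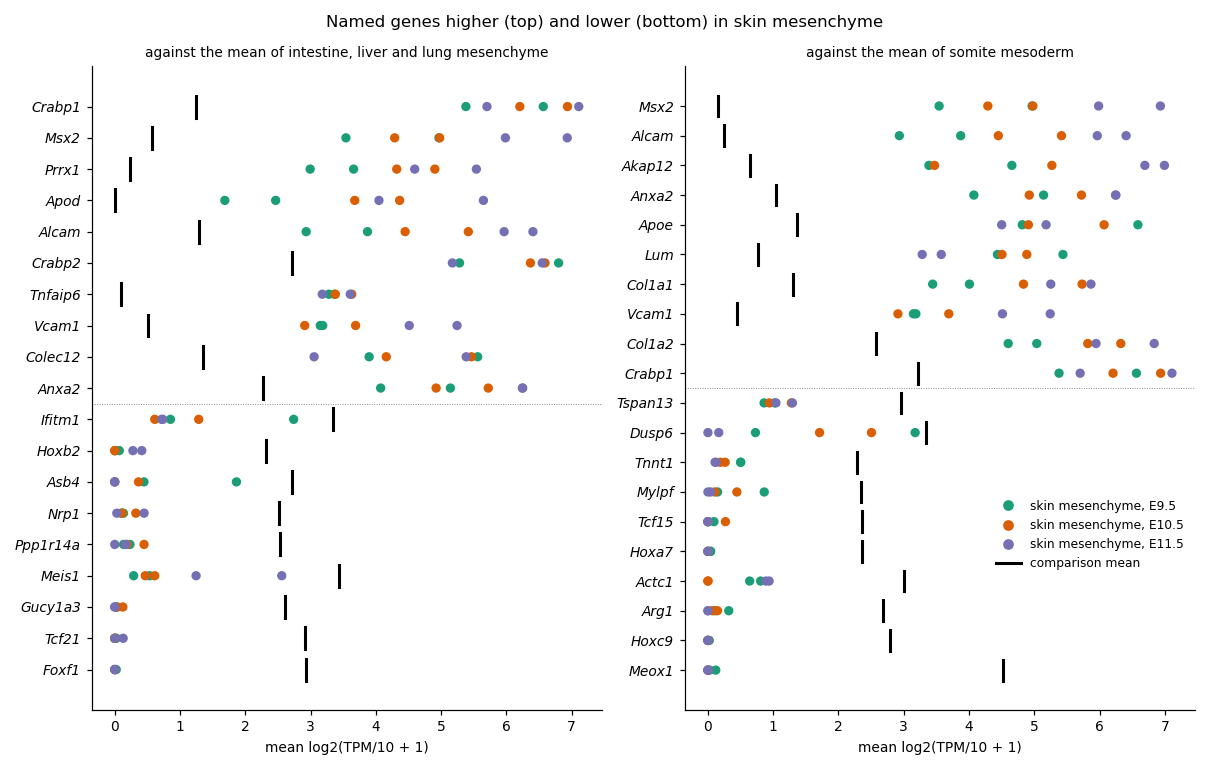
Levels of the 6 skin mesenchyme embryos (points, coloured by day, mean log2(TPM/10 + 1)) for the named genes with the largest differences, higher (top) and lower (bottom), against visceral mesenchyme (left) and somite mesoderm (right), with the mean of the comparison group as a black bar. Foxf1, Tcf21, Meox1 and Hoxc9 lie near 0 in every skin embryo, while Meis1 and Dusp6 spread widely between embryos.

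Transcription factors were called in both lists drawn up for them. Of 37 dermal and somitic factors tested, 11 were higher and 1 lower than in visceral mesenchyme, with a list median of 0.50 against -0.01 over all genes, and of 20 factors listed for visceral mesenchyme 13 were lower and 0 higher, with a list median of -1.24. Beside Msx2, Prrx1 and Twist1 (2.59, SE 0.26, adjusted p = 2.86e-08), the higher genes included Prrx2 (1.89, SE 0.27, adjusted p = 1.23e-05), Msx1, Alx1, Alx4, Lef1 and Zic1, and the lower one was Foxp1 (-1.25, SE 0.29, adjusted p = 0.00561). The lower visceral factors included Foxf1, Foxf2, Hand1, Hand2, Gata4, Gata5, Gata6, Tcf21, Nkx2-3, Osr1, Tbx3 and Tbx5, between -2.93 and -1.06. Over all genes 1.28% were higher and 0.642% lower. The lists were drawn up with earlier results of these data known and their counts are descriptions.

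Several of the higher factors were not uniform among the skin cells. Alx4, an aristaless-type homeobox factor of facial and limb mesenchyme, had 1.39, 1.57, 2.61, 1.88, 0.66 and 3.01 and was expressed in 48 of 77 cells (1.79, SE 0.18, adjusted p = 2.76e-08). For Alx1, its relative with a role in the face and eye region, the levels were 0.62, 3.33, 2.90, 1.02, 0.00 and 2.86. Alx1 was expressed in 12 of 15 cells of E9.5 embryo 3 and in 10 of 13 cells of E10.5 embryo 1 but in 4 of 19 cells of E9.5 embryo 2 and in 0 of 10 cells of E11.5 embryo 1, so embryos of one day differed widely.

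The zinc finger factor Zic1, known from dorsal neural tube, somites and head mesenchyme, was distributed otherwise. It stood at 1.41, 1.01, 1.76, 3.49, 3.03 and 3.91 in the 6 embryos (2.42, SE 0.28, adjusted p = 2.9e-07), against a visceral mean of 0.01. In E10.5 embryo 1 it was expressed in 7 of 13 cells and Alx1 in 10, while in E10.5 embryo 2 it was 16 and 5 of 16 cells. Six2, a homeobox factor, was found in 9 of 13 and 1 of 16 cells of the E10.5 embryos, and 18 of its 19 cells also expressed Alx4. Cells of one embryo share their dissection, so these counts describe these embryos and were not tested.

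**Figure D3:**
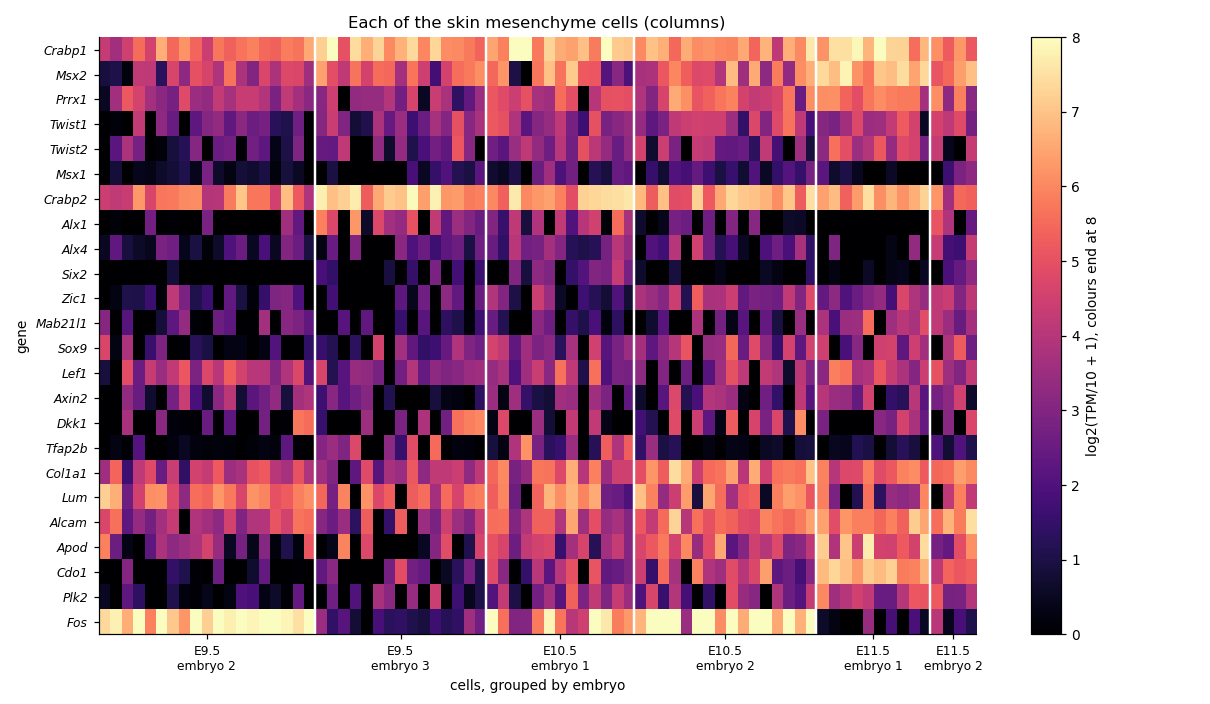
Values of 24 genes (rows, log2(TPM/10 + 1)) in each of the 77 skin mesenchyme cells (columns), grouped by embryo and otherwise in no order. Crabp1 and Crabp2 are present in every cell, Alx1 and Six2 are found in larger shares of the cells of E9.5 embryo 3, E10.5 embryo 1 and E11.5 embryo 2, and Fos is high in E9.5 embryo 2 and both E10.5 embryos.

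Hox transcripts were scarce in skin mesenchyme. No Hox gene of the 39 in the table reached 1 in 71 of the 77 cells, or 92.2% (95% exact interval 83.8% to 97.1%, counting error only), and no cell expressed more than 2. Between embryos, cells with a Hox gene ran from 0 of 13 in E10.5 embryo 1 to 2 of 10 and 1 of 4 at E11.5. Each of 74 intestine cells and each of 202 somite cells expressed at least 1, and 4 of 76 liver cells and 3 of 125 lung cells expressed 0. In skin epithelium 41 of 79 cells expressed 0. Together the 77 cells held 134 Hox UMIs of 35297180, or 3.80 TPM, against 940.5 TPM in intestine, 870 in somite, 388 in lung and 207 in liver mesenchyme and 36.8 TPM in skin epithelium.

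The scarcity held in each embryo. Hox UMIs of skin mesenchyme made up 2.93 and 6.10 TPM at E9.5, 0 and 0.449 TPM at E10.5 and 14.05 and 10.48 TPM at E11.5, where the 0 of E10.5 embryo 1 allows up to 0.851 TPM. The highest of them lay below the lowest embryo of any other mesodermal group, which was a liver embryo at 133 TPM. Skin epithelium lay within the skin mesenchyme range at E9.5 and E10.5, at 2.02 to 10.54 TPM, and above it at E11.5, at 109 and 84.95 TPM. A single cell of E9.5 embryo 2 gave 35 of its 55 Hox UMIs, and a single cell of E11.5 embryo 1 gave 33 of its 38, most of those of Hoxa2. By paralogue group, the TPM of cells were averaged within each embryo and then over embryos. Skin mesenchyme did not exceed 2.72 TPM (group 2, highest embryo 9.39). Groups 7 to 9 averaged 55.3 to 235 TPM in intestine and somite, and groups 1 to 5 averaged 11.95 to 138.5 TPM in all 4 other mesodermal groups. Group 10 was uneven, from 0 to 565 TPM between intestine embryos and from 0 to 309.5 TPM between somite embryos. Per gene, 3 of 37 Hox genes tested were lower than in visceral mesenchyme (Hoxa2, Hoxa5 and Hoxb2, the last -2.19 (SE 0.36, adjusted p = 0.000122)) and 7 lower than in somite, with 0 higher in both. Over all genes 0.642% and 0.622% were lower. Since the region of the body is not given, organ and axial position cannot be told apart in the comparisons reported here.

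**Figure D4:**
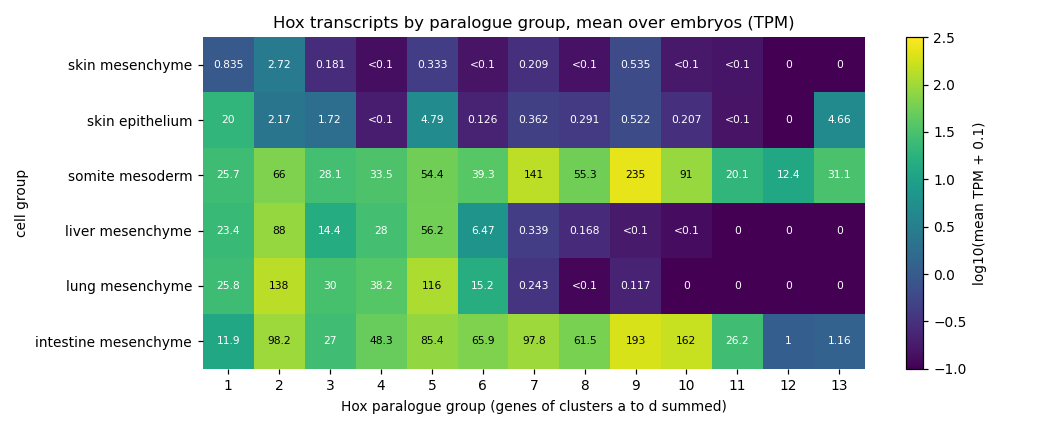
Hox transcripts summed over each paralogue group (columns 1 to 13) in 6 cell groups (rows), as the mean over embryos in TPM (printed) and log10(mean TPM + 0.1) (colour). The mean of skin mesenchyme is at or below 2.72 TPM in every column, and intestine and somite carry groups 7 to 10, the last in some embryos only, that liver and lung carry at a mean of 0.339 TPM or less.

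Signalling genes were then grouped by their role. Retinoic acid is held by binding proteins and acts through nuclear receptors. Of 18 genes of this pathway tested, Crabp1 and Crabp2 (3.41, SE 0.44, adjusted p = 2.41e-06) were higher in skin than in visceral mesenchyme. Crabp2 stood at 5.28, 6.80, 6.59, 6.37, 6.55 and 5.17 and was expressed in all 77 cells. Aldh1a2, the main enzyme that makes retinoic acid in the embryo, was expressed in 0 of 77 skin cells and stood at 1.38 on average in visceral mesenchyme, a difference that was not called (adjusted p = 0.307).

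Wnt ligands bind Frizzled receptors and act through Lef and Tcf factors. Of 15 Wnt receptors 0 were called in either direction, where 1.93% of all genes were, so this count does not set the receptors apart. Of 31 genes of Wnt secretion, inhibition and response 10 were higher and 0 lower, with a list median of 0.28, where 1.28% of all genes were higher. The 10 include the marker gene Twist1 and Lef1, which were also counted among the dermal and somitic factors. Among the response genes, the feedback inhibitor Nkd1 had 3.93, 2.9997, 3.65, 4.46, 5.10 and 4.88. Axin2, another, had 2.15, 1.11, 2.03, 2.03, 2.68 and 2.79. No skin embryo of either gene lay below the visceral mean, and the differences were 2.25 (SE 0.34, adjusted p = 2.7e-05) and 1.74 (SE 0.18, adjusted p = 5.54e-08). Lef1 was higher by 1.75 (SE 0.35), although its lung embryos, at 2.97 to 4.45, overlapped with skin. Nkd2 was higher by 2.42 (SE 0.20) with no overlap, and the secreted inhibitors Dkk1 (1.43, SE 0.13, adjusted p = 5.72e-09) and Frzb (1.37, SE 0.35, adjusted p = 0.0135) were higher too. Dkk1 was unevenly spread, with 38 of 77 cells expressing it, and single cells reached 6.09. Of the 11 ligands tested, Wnt6 was higher (1.35, SE 0.15, adjusted p = 1.17e-07) and Wnt2, a ligand of lung mesenchyme, lower (-1.26, SE 0.36, adjusted p = 0.0318). In skin epithelium Wnt6 stood at 5.69 ± 0.47 and Sostdc1, a secreted inhibitor of BMP and Wnt signals, at 6.81 ± 0.80 (SD, n = 6), against 1.41 ± 0.62 and 1.53 ± 0.26 in skin mesenchyme.

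BMP and Hedgehog genes differed at a few points. Of 25 BMP ligands, receptors and inhibitors only Bmp7 was higher (1.16, SE 0.24, adjusted p = 0.00171), and of 10 target genes only Msx1 (1.10, SE 0.12, adjusted p = 1.82e-07) and Msx2. Over all genes 1.28% were higher. The Hedgehog co-receptors Gas1, with 2.69, 2.97, 4.26, 4.12, 2.76 and 3.66 (2.24, SE 0.30, adjusted p = 5.56e-06), and Cdon (1.52, SE 0.26, adjusted p = 0.000221) were higher, while the target genes Foxf1, Foxf2 and Hhip (-1.71, SE 0.35, adjusted p = 0.00199) were lower. Ptch1 and Gli1, general targets of the pathway, were low in both, at 0.10 and 0.24 in skin mesenchyme and 0.31 and 0.67 in visceral mesenchyme, and were not called. Of 14 FGF receptors and response genes 0 were called. Over all genes 1.93% were called, so a count of 0 does not set so short a list apart.

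The matrix genes that were called were higher in skin mesenchyme. Of 23 collagens 9 were higher and 0 lower, with a list median of 0.56, and of 37 other matrix genes 7 were higher and 0 lower, with a list median of 0.15. Over all genes 1.28% were higher and 0.642% lower, with a median of -0.01. The fibrillar collagens Col1a1 (2.66, SE 0.52, adjusted p = 0.000894), Col1a2 (2.33, SE 0.51, adjusted p = 0.00333) and Col3a1 (1.67, SE 0.42, adjusted p = 0.0109) were among the former, together with Col2a1 (2.96, SE 0.36, adjusted p = 6.77e-07), best known from cartilage. Col1a1 stood at 4.01, 3.44, 4.83, 5.73, 5.25 and 5.87, and lung mesenchyme, which reached 5.37, overlapped with it. The small proteoglycan Lum had 5.44, 4.44, 4.50, 4.88, 3.28 and 3.57, lowest in both E11.5 embryos, and differed by 2.92 (SE 0.49, adjusted p = 0.000158), with a highest intestine embryo of 5.97, whereas Dcn, its relative, was 0.66 in skin and 1.71 in visceral mesenchyme and was not called. Cdh11, the cadherin of mesenchyme, was expressed in all 77 cells and higher by 2.77 (SE 0.27, adjusted p = 1.04e-08). The endothelin receptors went opposite ways, Ednra higher (1.08, SE 0.28, adjusted p = 0.0131) and Ednrb lower (-1.96, SE 0.47, adjusted p = 0.00714). Of 14 imprinted growth genes 3 were lower, where 0.642% of all genes were. They were H19 (-1.68, SE 0.36, adjusted p = 0.00268), Plagl1 (-2.08, SE 0.28, adjusted p = 3.86e-06) and Igf2r (-1.57, SE 0.30, adjusted p = 0.000682).

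The count against visceral mesenchyme rested on all days together. With E9.5 embryos alone, an alternative chosen after seeing the data, 88 genes were called (74 higher, 14 lower), and 12 of the 20 named genes were among them. With E10.5 and E11.5 embryos alone and no liver it was 386 genes.

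The somite gives rise to the dermis of the back, and the next comparison was with its mesodermal cells. Skin mesenchyme had 306 genes called against somite mesoderm, 2.07% of 14802, with 214 higher (1.45%) and 92 lower (0.622%). The median over all genes was -0.01. Skin cells entered this comparison by their mesenchymal label and somite cells by their mesoderm label, and the 2 comparisons share the same skin embryos.

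Msx2, a marker gene proposed with results of these data known, led the higher genes at 4.96 (SE 0.36, adjusted p = 5.53e-11), and the highest somite embryo reached 0.41. Alcam (4.60, SE 0.34, adjusted p = 5.53e-11), Anxa2 (4.34, SE 0.44, adjusted p = 7.15e-08), Vcam1 (3.34, SE 0.30, adjusted p = 4.79e-09) and Crabp1 (3.09, SE 0.42, adjusted p = 1.11e-05) were higher against somite as well. Akap12, a scaffold protein for protein kinase A, had 4.66, 3.39, 3.47, 5.27, 6.69 and 6.99, highest in both E11.5 embryos, and a difference of 4.43 (SE 0.52, adjusted p = 9.36e-07). The lipid carrier Apoe had 6.59, 4.82, 4.91, 6.07, 4.50 and 5.18 and a difference of 3.98 (SE 0.43, adjusted p = 2.15e-07). Matrix genes added Lum (3.59, SE 0.56, adjusted p = 8.31e-05), Col1a1 (3.56, SE 0.59, adjusted p = 0.000176) and Col1a2 (3.19, SE 0.58, adjusted p = 0.000686). Of 23 collagens 8 were higher and 0 lower, where 1.45% of all genes were higher and 0.622% lower. Of 10 surface epithelium markers tested 2 were higher than in somite and 1 than in visceral mesenchyme, among them Krt8 against somite (2.11, SE 0.56, adjusted p = 0.0208), and the summed list did not overlap between skin and somite, as given above. Anxa2 was itself higher on average in skin epithelium, at 6.82, than in skin mesenchyme, at 5.39, and the part of epithelial transcripts in these differences was not tested.

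Somite factors were among the genes lower in skin mesenchyme. Meox1, a homeobox factor of somites, had 0.03, 0.12, 0.00, 0.00, 0.00 and 0.00 against a somite mean of 4.51, was expressed in 0 of 77 cells and differed by -4.49 (SE 0.21, adjusted p = 1.01e-15). Tcf15, the factor of somite epithelium also called paraxis, differed by -2.30 (SE 0.19, adjusted p = 8.76e-10), with 2 of 77 cells expressing it. Pax1 of the sclerotome (-1.56, SE 0.23, adjusted p = 4.4e-05), Pax3 of the dermomyotome (-1.40, SE 0.22, adjusted p = 8.79e-05), Meox2, Foxc2 and Ebf2 were lower too, so that of 37 dermal and somitic factors 10 were higher and 7 lower. The contractile genes Actc1, Mylpf and Tnnt1 differed by -2.45 (SE 0.63), -2.08 (SE 0.45) and -1.996 (SE 0.42). Hoxc9 and Hoxa7 were at 0.04 or less in every skin embryo and differed by -2.78 (SE 0.60, adjusted p = 0.00372) and -2.35 (SE 0.45, adjusted p = 0.0013). Arg1 (-2.58, SE 0.65, adjusted p = 0.0133) and Tspan13 (-1.88, SE 0.28, adjusted p = 4.76e-05) were also lower. Dusp6, a phosphatase induced by FGF signalling, differed by -1.95 (SE 0.47, adjusted p = 0.00959), but its skin levels of 3.17, 0.73, 2.51, 1.71, 0.17 and 0.00 spread from E9.5 embryo 2 down to both E11.5 embryos and overlapped with the somite. Spry1, another FGF response gene, was lower too, with a difference of -1.13 (SE 0.26).

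Some factors did not separate skin from somite. Twist2, a dermal factor, was at 2.66 ± 0.96 (SD, n = 6) in skin and 2.06 in somite, a difference of 0.60 (SE 0.37, limma adjusted p = 0.438). Gas1, Nkd2 and Lef1, higher than in visceral mesenchyme, differed from somite by 0.32, 0.42 and 0.74 and were not called. The count depended on the days here too, with 60 genes called (51 higher, 9 lower) in the E9.5 embryos alone and 9 of the 20 named genes among them. With edgeR on summed UMIs the split was 300 higher and 243 lower, a share of higher genes of 55.3% against 69.9%.

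How skin mesenchyme moved from E9.5 to E11.5 was asked with a slope on embryonic day, called at an adjusted p under 0.05 where the slope reached 0.5 per day in either direction. Of 13584 genes 54 were called (0.398%), 42 rising (0.309%) and 12 falling (0.0883%), and the median slope of all genes was -0.01. These calls used the spread of skin, lung and intestine together. In each organ both E10.5 embryos shared a deposited sample, and so did both E11.5 embryos, so day and sample cannot be told apart there. With the skin embryos alone limma called 0 genes, with 1345 genes at an unadjusted p under 0.05, and edgeR on summed UMIs called 3 others. Leaving out E9.5 embryo 2, E10.5 embryo 2 or E11.5 embryo 1 gave 25 (17 rising, 8 falling), 34 (27 and 7) or 182 genes (136 and 46), and leaving out E9.5 embryo 3 gave 67 (36 and 31).

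The steepest rise was in Cdo1, the enzyme that turns cysteine into its sulfinic acid, with 0.60, 1.59, 2.89, 3.64, 6.72 and 5.02 and a slope of 2.39 (SE 0.23, adjusted p = 2.32e-06) per day. Both E11.5 embryos lay above both E10.5 embryos, and those above both E9.5 embryos. The days were ordered in the same way for Lrrc17, with 1.16, 1.16, 2.06, 2.45, 4.62 and 3.54 (1.46, SE 0.22, adjusted p = 0.00112), Plk2, a kinase, with 0.71, 1.497, 3.0004, 2.48, 4.15 and 3.70 (1.41, SE 0.25, adjusted p = 0.00482), and Alcam (1.39, SE 0.19, adjusted p = 0.000527). Apod rose (1.39, SE 0.22, adjusted p = 0.00141), although E11.5 embryo 2 lay below E10.5 embryo 2. Limch1 rose by 1.75 (SE 0.35, adjusted p = 0.0156) and Gsn, an actin-severing protein, by 1.21 (SE 0.21, adjusted p = 0.00345). Col12a1, a collagen that sits on the surface of fibrils, had 0.46, 0.14, 0.41, 0.62, 3.20 and 2.15, a step that lay between E10.5 and E11.5 (1.19, SE 0.18, adjusted p = 0.00112).

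Factors among the rising genes were Zic1 (1.13, SE 0.20, adjusted p = 0.00482), Prrx1 (0.87, SE 0.20, adjusted p = 0.0425), Mab21l1, with 1.51, 0.83, 1.19, 1.17, 3.45 and 3.47 (1.15, SE 0.18, adjusted p = 0.0019), and Dlx5 (0.52, SE 0.08, adjusted p = 0.00076), a homeobox factor of the face and skeleton that reached 1.34 at most. The Hedgehog co-receptor Cdon rose by 1.03 (SE 0.19, adjusted p = 0.00611). Cxcl14, a chemokine of skin, stood at 0.00, 0.00, 0.87, 0.81, 2.15 and 2.26 and rose by 1.10 (SE 0.08, adjusted p = 1.21e-08). At E9.5 it was expressed in 0 of 19 and 0 of 15 cells, at E11.5 in 8 of 10 and 4 of 4, and in skin epithelium it stood at 3.50. Msx2 did not pass, with a slope of 1.10 (SE 0.28, adjusted p = 0.0703).

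The falling genes included Nrsn1, a vesicle protein of neurons, which had 2.71, 2.36, 1.45, 1.37, 0.00 and 0.00 and a slope of -1.27 (SE 0.10, adjusted p = 2.35e-08), with 0 in both E11.5 embryos. Igdcc3, an immunoglobulin-domain receptor, had 4.73, 4.14, 2.63, 3.46, 0.00 and 1.72 (-1.79, SE 0.31, adjusted p = 0.00358). The histone methyltransferase Suv39h1 had 2.84, 2.93, 1.63, 1.46, 0.75 and 0.72 (-1.08, SE 0.17, adjusted p = 0.00171) and the kinetochore protein Cenph 4.28, 3.86, 3.41, 2.77, 2.25 and 1.13 (-1.19, SE 0.27, adjusted p = 0.0422). Spsb4, Cab39l, Kif5c and Itih5 fell by 0.91, 0.89, 0.88 and 0.83 per day. Cell cycle genes as lists lay lower at later days, but 0 of 43 G1/S and 0 of 54 G2/M genes were called. Over all genes 0.398% were called and 0.0883% were called falling, so these counts do not set the lists apart. Their median slopes were -0.22 and -0.45, against -0.01 over all genes. The summed G2/M level was 182, 182, 164, 138, 139 and 122 from E9.5 embryo 2 to E11.5 embryo 2. Median UMIs per cell also differed between the days, as given above, and after thinning each cell to 100000 UMIs 55 genes were called, of which 42 were among the 54.

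Genes of the early response, which stimulation or handling of cells can raise, split the embryos across the days. Fos stood at 7.69, 1.65, 5.94, 7.98, 0.85 and 1.86 and Egr1 at 4.54, 0.95, 4.15, 5.41, 0.59 and 1.56, and the list of 20 early response and heat shock genes summed to 58.9, 20.7, 51.8, 66.9, 15.0 and 17.8. E9.5 embryo 2 and both E10.5 embryos were high and E9.5 embryo 3 and both E11.5 embryos low. Of this list 0 genes were called in any comparison. Over all genes 1.93% and 2.07% were called between organs and 0.398% and 0.162% for the slopes. A count of 0 of 20 therefore does not set the list apart. Its part in the organ differences and in the slopes was not tested.

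**Figure D5:**
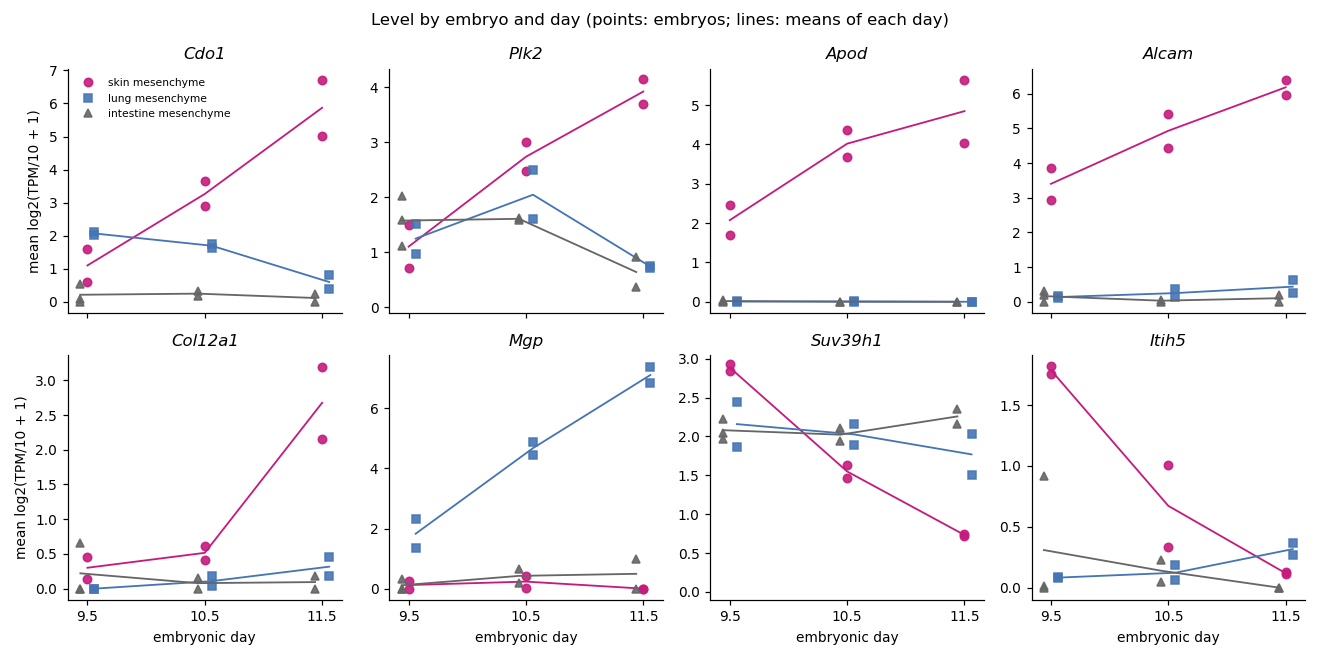
Levels of 8 genes by embryonic day in skin, lung and intestine mesenchyme (points are embryos, lines join the means of each day, mean log2(TPM/10 + 1)). Cdo1, Plk2, Apod, Alcam and Col12a1 are higher in skin at E11.5 than at E9.5, Suv39h1 and Itih5 are lower, and Mgp is higher in lung at E11.5 than at E9.5.

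Whether a slope differed from that in lung and intestine mesenchyme was tested directly. The difference of slopes was called for 22 genes, 0.162% of 13584, with 16 steeper upward in skin (0.118%) and 6 downward (0.0442%). Cdo1 rose in skin and had a slope of -0.73 in lung and -0.04 in intestine, a difference of 2.77 (SE 0.28, adjusted p = 4.62e-06). Differences of the same sign were found for Plk2 (1.76, SE 0.30, adjusted p = 0.00799), Apod (1.39, SE 0.26, adjusted p = 0.0206), Alcam (1.33, SE 0.23, adjusted p = 0.00834), Mab21l1 (1.15, SE 0.22, adjusted p = 0.0244), Col12a1 (1.14, SE 0.22, adjusted p = 0.0241), Fbln2 (1.13, SE 0.19, adjusted p = 0.00593) and Cxcl14 (1.11, SE 0.09, adjusted p = 4.28e-07). Fbln2, a matrix protein of elastic fibres, had 1.40, 1.24, 2.03, 2.35, 3.60 and 3.32 in skin and -0.03 and -0.09 per day in lung and intestine.

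For Nrsn1 (-1.23, SE 0.12, adjusted p = 1.68e-06), Suv39h1 (-1.02, SE 0.21, adjusted p = 0.0335), Itih5 (-0.82, SE 0.16, adjusted p = 0.0214) and Plekha2 (-0.57, SE 0.11, adjusted p = 0.0312) the skin slope was the more negative, but with edgeR the Plekha2 difference turned to 2.41 (adjusted p = 0.857). For Mgp, an inhibitor of calcification in the matrix, the difference of -1.48 (SE 0.25, adjusted p = 0.00593) came with a slope of 2.64 in lung and -0.06 in skin, where the gene reached 0.43 at most, and for Myocd, the co-activator of smooth muscle genes (-0.81, SE 0.16, adjusted p = 0.0312), with 1.01 in lung and 0.00 in skin. The count was 9 without E9.5 embryo 2, 49 without E11.5 embryo 1 and 7 with edgeR, of which 1 was among the 22.

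Skin mesenchyme and the epithelium above it came from the same dissections, and their labels rest on the expression of the same cells, so they are set side by side without a test. Crabp2 was nearly level in the 2 layers, at 6.13 ± 0.71 and 5.79 ± 0.27 (SD, n = 6), and so were Gas1, at 3.41 ± 0.69 and 3.66 ± 0.47, and Cdon, at 1.86 ± 0.98 and 1.78 ± 0.61. Col1a1 was at 4.86 ± 0.97 and 1.23 ± 0.69, Cdh11 at 5.56 ± 0.71 and 1.44 ± 0.98 and Tnfaip6 at 3.41 ± 0.18 and 0.52 ± 0.45, and none of these 3 overlapped between the layers. Nkd1 was at 4.17 ± 0.79 in mesenchyme and 1.36 ± 0.60 in epithelium, while Axin2 was at 2.13 ± 0.60 and 1.52 ± 0.66 and overlapped. Wls, which carries Wnt proteins to the cell surface, was high in both, at 4.38 ± 0.27 and 5.28 ± 0.48. Anxa2 was at 5.39 ± 0.85 and 6.82 ± 0.66 and Plk2 at 2.59 ± 1.31 and 2.78 ± 0.38, so neither was higher in the mesenchyme on average.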

How the data were processed

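Single cells were picked by mouth pipette after trypsin digestion and sequenced with a modified STRT protocol, which tags each cell with a barcode and each molecule with a UMI and reads the 3′ end of the transcript. The authors aligned reads with TopHat2 2.0.12 to the mm10 genome and counted them with HTSeq, whose version and annotation are not given in the sources used here. CASAVA 1.8 is also named in the submitters' processing notes. They deposited UMI counts scaled to 1000000 per cell (CPM), which they call TPM, without the counts themselves. Whole UMIs were recovered from the deposited CPM values and each cell's UMI total, and 100% of the 5328803 values above 0 in the 830 cells used came out whole at a tolerance of 0.05. In all 18 of the 32 deposited tables were used, and brain, heart and later liver were left out.

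Cells were taken by the study's own mesenchymal (Mes), mesodermal and epithelial annotation, which rests on clustering of the same cells, so no test was made between the layers of the skin. Each embryo contributed the mean over at least 3 cells of log2(TPM/10 + 1), and a gene was tested where 3 or more of the cells compared expressed it at 1 or more. Skin was tested with limma 3.58.1 in R 4.3.3 against the mean of intestine, liver and lung mesenchyme and against somite mesoderm, in 1 fit over all embryos, and slopes on embryonic day were fitted over skin, lung and intestine. The members and gene lists were chosen with earlier results of these data known. Genes named in the comparisons are the 10 highest and 10 lowest called (8 for slopes) in the organ comparisons with the same direction in every skin embryo, together with members of the lists, and some of these genes are not reported here. Promoter sequences and their positions are from RefSeq GRCm38.p6, which held all 4 genes.

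Groups share embryos. Deviations from the mean of group and day correlated between groups of one embryo at -0.10 to 0.41 (median 0.15, 47 pairs, across genes), and with skin mesenchyme the median was 0.05 over 20 pairs. At E10.5 and E11.5 the paired embryos of a group mirror each other in these deviations. The same correlation is therefore counted again there, and the pairs are not independent. The embryo block was fitted as an alternative, beside edgeR 4.0.16 on summed UMIs, thinning to 100000 UMIs, other filters and log scales, day as a covariate and leaving out each embryo. Counting intervals and limits (3 counts for a count of 0) cover counting error only. The p-values measure the spread between embryos. The fits were also run on simulated cells with known changes. Those cells had noise of their own but no differences between embryos, so that run could not test the spread between embryos.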

Additional observations from a re-analysis of the deposited data

Results flagged for a closer look

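In 8 of the genes named, 1 skin embryo stood apart from the other 5, and how often chance gives this was not tested. Tcf21 was highest in E11.5 embryo 2 at 0.13, Gucy1a3 in E10.5 embryo 2 at 0.12, Meox1 in E9.5 embryo 3 at 0.12, Hoxc9 in E9.5 embryo 2 at 0.0204, Tcf15 in E10.5 embryo 1 at 0.27 and Myocd in E10.5 embryo 1 at 0.0438, all levels below 1. Asb4 and Ifitm1 were highest in E9.5 embryo 2, at 1.86 and 2.74, and were expressed in 13 of its 19 cells each. This embryo was the female, deeply sequenced one and also had the highest summed level of blood markers, 6.88, and the part of these in the 2 genes was not tested.

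The slope on embryonic day differed between skin mesenchyme and the mean of lung and intestine mesenchyme, by limma with Benjamini-Hochberg adjustment, in 14 named genes. The differences in slope (log2 per day) were 2.77 for Cdo1, 1.76 for Plk2, 1.39 for Apod, 1.33 for Alcam, 1.15 for Mab21l1, 1.14 for Col12a1, 1.13 for Fbln2 and 1.11 for Cxcl14. They were -1.48 for Mgp, -1.23 for Nrsn1, -1.02 for Suv39h1, -0.82 for Itih5, -0.81 for Myocd and -0.57 for Plekha2.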

How the results depend on the processing

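On the log2(TPM + 1) scale, 727 genes were called against visceral mesenchyme, 632 against somite and 105 over days, and edgeR on summed UMIs called 776, 543 and 3. The named genes of both organ comparisons kept their direction in all alternatives. E9.5 embryos alone, chosen after seeing the data, gave 88 and 60. Over days, the skin embryos alone gave 0. The difference of slopes gave 41 genes with at least 5 cells per mean, 13 after thinning and 7 with edgeR, where Plekha2 turned to 2.41 (adjusted p = 0.857). The cause was not tested. Leaving out 1 embryo at a time gave 250 to 304, 226 to 313, 25 to 182 and 9 to 49 genes in the 4 results, lowest for both slopes without E9.5 embryo 2 and highest without E11.5 embryo 1. With the embryo as a replicate block the counts were 292, 318, 59 and 24, and no named gene lost its call. Both slope results rest on 6 skin embryos, of which E11.5 embryo 2 had 4 cells, and liver mesenchyme was available at E9.5 only. The E10.5 pair shared a deposited skin sample and so did the E11.5 pair, which leaves day and sample inseparable at those days.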
